A study of Mus musculus with 48 samples.

Results

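Astrocytes are the glial cells that wrap synapses and blood vessels, and the genes described here are 10 of those by which they are usually recognised: Slc1a2, Slc1a3, Glul, Gja1, Gjb6, Gfap, Aqp4, Aldh1l1, Aldoc and S100b. They were chosen by name, with no expression threshold, and all 10 had a row in every library, out of 15280 genes listed for hippocampus, 15239 listed for frontal cortex and 14952 shared by the tissues. All 10 passed the filter on low values in both tissues.

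At the synapse, astrocytes take up glutamate through the transporters GLT-1 (Slc1a2) and GLAST (Slc1a3) and turn it into glutamine with glutamine synthetase (Glul), which neurons reuse. Astrocytes are joined to one another by gap junctions of connexin 43 (Gja1) and connexin 30 (Gjb6), through which ions and small metabolites pass. The intermediate filament protein GFAP (Gfap) is abundant in white matter and hippocampal astrocytes, low in most cortical grey matter astrocytes, and rises when astrocytes become reactive. The other genes encode the water channel of the perivascular endfeet (Aqp4), an enzyme of folate metabolism (Aldh1l1), the brain form of the glycolytic enzyme aldolase (Aldoc) and a calcium-binding protein (S100b).

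Poly(A) RNA was sequenced from whole hippocampus and frontal cortex of male C57BL/6 mice aged 63 to 91 postnatal days. Mice spent 3 days in a stress or a control environment and were injected intraperitoneally 60 min after each session with esomeprazole, a proton pump inhibitor, or with vehicle, and tissue was taken 12 h after the last injection. The dose of esomeprazole was 2 mg/kg in the design text, whereas the treatment protocol prints the same figure in g/kg. The 4 conditions (stress with esomeprazole, stress with vehicle, control environment with esomeprazole, control environment with vehicle) had 6 mice each and 6 libraries per tissue, 48 libraries in all. The 2 tissues come from the same design of 4 groups of 6 mice, but the labels do not tie a hippocampal library to a cortical one, so the libraries were treated as independent. Control environment mice are called non-stressed below.

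Gene reads ranged from 25.3 to 42.0 M per hippocampal library and from 27.6 to 41.5 M per frontal cortex library. Libraries stood apart in 2 ways, the second of them unevenly over the groups. The share of reads that overlapped no annotated gene (the no-feature share) fell below 12% for 5 libraries of hippocampus and 7 of frontal cortex, at least 1 in each of the 8 groups, against a median of 17.7% and 18.2% over the 24 libraries of hippocampus and of frontal cortex. Separately, 5 hippocampal libraries, 4 of stressed esomeprazole and 1 of stressed vehicle mice, were high in markers of striatal neurons. In frontal cortex, 7 libraries, 4 of them of non-stressed vehicle mice, were low in markers of olfactory bulb neurons beside the other frontal cortex libraries. No hippocampal library and 2 frontal cortex libraries belonged to both kinds. Main results that rest on these libraries are given with and without them.

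The level of each gene is given as normalised reads, the whole reads recovered from the deposited values and scaled over all 48 libraries to a common library size. By the median per kilobase of exon, Glul was the highest of the 10 genes and Aldh1l1 the lowest in both tissues, whereas by the mean Aqp4 was the lowest (633 for Aqp4 and 656 for Aldh1l1 in hippocampus, 629 and 791 in frontal cortex). In hippocampus the median per kilobase was 18972 normalised reads for Glul, 10327 for Aldoc and 7982 for Slc1a2. Gfap (3824), Slc1a3 (3287) and S100b (2707) formed the middle of the hippocampal order by the median per kilobase. Gjb6 (808), Gja1 (780), Aqp4 (730) and Aldh1l1 (531) had the lowest medians per kilobase in hippocampus. In frontal cortex the order of the medians per kilobase was Glul, Aldoc, Slc1a2, Slc1a3, S100b, Gfap, Gjb6, Gja1, Aqp4 and Aldh1l1, so that Gfap stood sixth there and the order of the others was the same. Neighbours in these orders had overlapping ranges over the 24 libraries of a tissue, except S100b and Gjb6 in hippocampus. The sum over the 10 genes lay between 219741 and 346865 normalised reads in hippocampal libraries and between 212246 and 304175 in frontal cortex libraries. All 10 genes were far from 0 in each library, the lowest single value being 314 normalised reads of Aqp4. In whole tissue, fewer astrocytes and less RNA per astrocyte cannot be told apart.

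**Figure D1:**
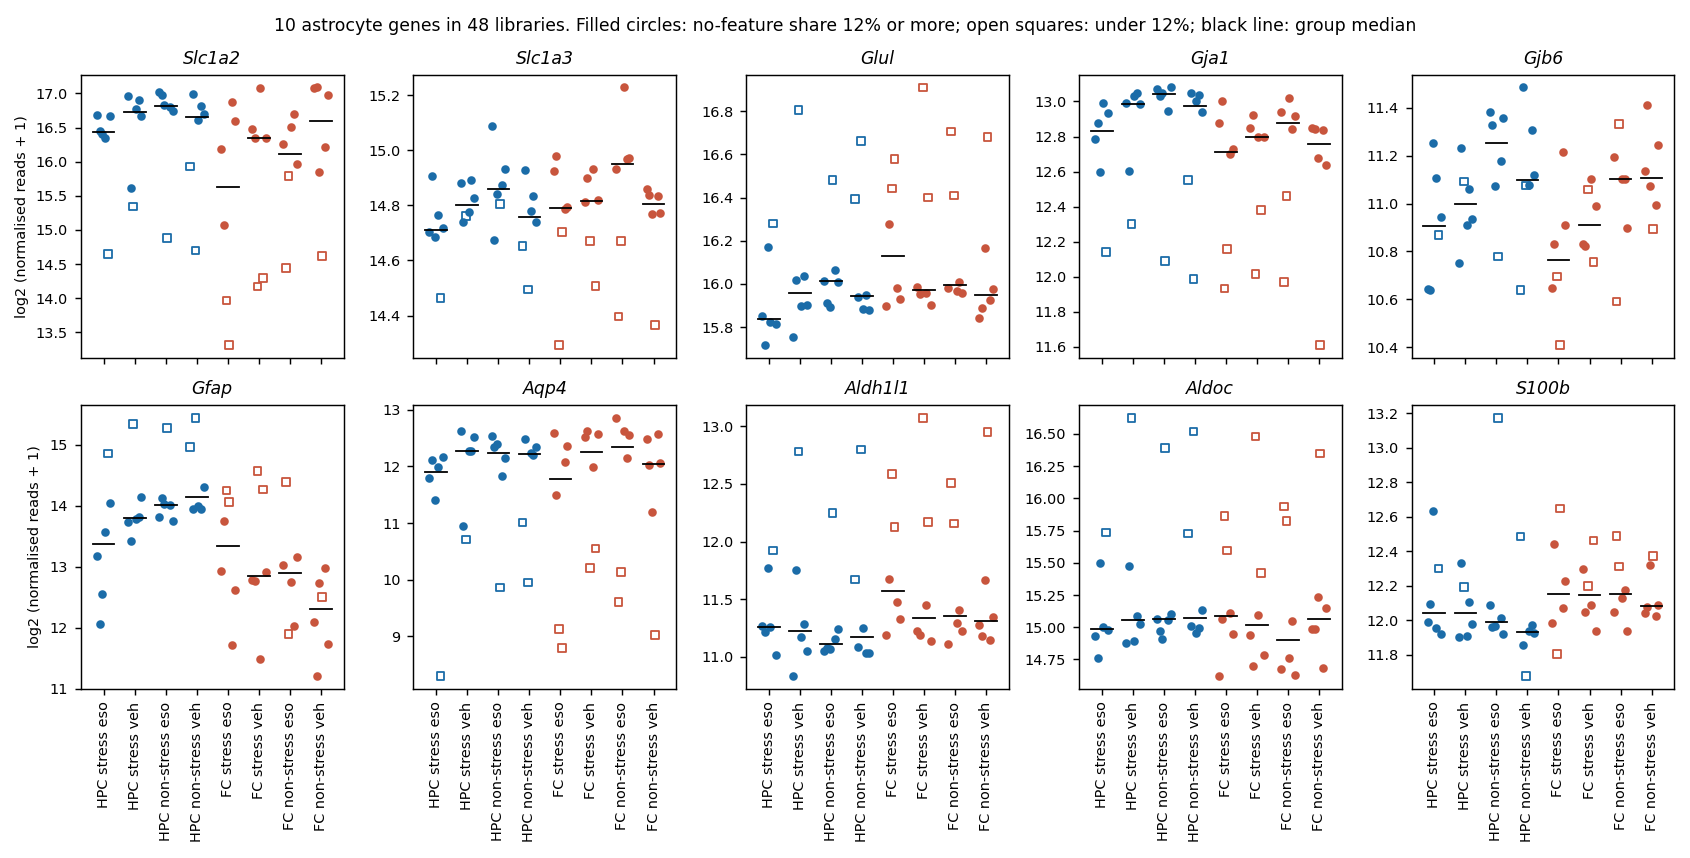
Log2 of normalised reads plus 1 (vertical axis) of the 10 genes in the 6 libraries of each of 8 groups, hippocampus (HPC, blue) and frontal cortex (FC, red), stressed and non-stressed, esomeprazole (eso) and vehicle (veh); points are libraries, open squares those with a no-feature share under 12%, and black lines group medians. Gfap is the gene whose hippocampal and cortical groups separate most, and the open squares lie at the ends of many groups.

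The tissue contrast, hippocampus against frontal cortex averaged over the 4 conditions, asks which of these genes differ between the regions. Gfap was higher in hippocampus, and it was the only 1 of the 10 genes called, where 25.7% of the 14820 genes tested were called (12.0% higher and 13.8% lower in hippocampus). A gene was called at a Benjamini-Hochberg adjusted p under 0.05 in limma. The median log2 difference of the 10 genes was 0.08, beside 0.02 over all genes tested.

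Gfap had a lowest, median and highest value of 4279.7, 16128 and 44445 normalised reads in the 24 hippocampal libraries, against 2369.6, 7003 and 24291 in the 24 frontal cortex libraries. The 2 ranges overlapped, as did those of the other 9 genes (0.202% of all genes had ranges that did not). The log2 difference was 1.15 ± 0.24 (standard error, n = 24 against 24, limma adjusted p = 0.000175), a fold of 2.21. It kept its call under all 11 alternatives, between 1.07 and 1.20.

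The estimates of the Gfap contrast ran between 0.16 and 2.22 over the 4 conditions, and the difference of this contrast between stressed and non-stressed mice, given with the stress effects, was not called. In stressed esomeprazole mice Gfap had 4279.7, 10723 and 29758 normalised reads (lowest, median and highest of 6) in hippocampus, against 3351, 10818 and 19551 in frontal cortex. These 2 groups overlapped over most of their range, and the log2 difference was 0.16 ± 0.48 (limma adjusted p = 0.908, 5.25% of all genes called in this condition). In stressed vehicle mice the values were 10998, 14280.5 and 41593 in hippocampus, against 2879.86, 7381 and 24291 in frontal cortex, with a log2 difference of 0.91 ± 0.48 (limma adjusted p = 0.352, 7.54% of all genes called). These groups overlapped too.

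In non-stressed esomeprazole mice Gfap had 13773, 16619.5 and 39835 normalised reads in hippocampus, against 3816, 7657 and 21524 in frontal cortex, a log2 difference of 1.29 ± 0.48 (limma adjusted p = 0.0807, 9.78% of all genes called). In non-stressed vehicle mice every hippocampal library (15863, 18316 and 44445) was above every frontal cortex library (2369.6, 5105 and 8134). None of the other 9 genes had tissue ranges that did not overlap in any condition, against 1.66%, 3.33%, 5.86% and 6.03% of all genes in stressed esomeprazole, stressed vehicle, non-stressed esomeprazole and non-stressed vehicle mice. The log2 difference of Gfap there was 2.22 ± 0.48 (limma adjusted p = 0.000974, 9.17% of all genes called), the only call among the 10 genes within a single condition.

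Marker levels of neighbouring tissue differed between the conditions as well. The Gfap contrast rose from stressed esomeprazole over stressed vehicle and non-stressed esomeprazole to non-stressed vehicle mice. Libraries set apart by these markers numbered 4, 1, 0 and 0 in hippocampus and 1, 1, 1 and 4 in frontal cortex, in that order. The group medians of each marker set, taken alone, did not follow the order exactly. The cause of the order was not tested. In hippocampus, the summed level of 12 striatal neuron markers had a median of 58352 normalised reads in stressed esomeprazole mice (6675 to 108444). The median was 8098 in stressed vehicle mice (7345 to 43678). In non-stressed mice it was 8855 with esomeprazole (7555 to 10065) and 7826 with vehicle (7055 to 12041). Gfap lay between 4279.7 and 12146 normalised reads in the 5 hippocampal libraries high in these markers, below the other 19, which lay between 13718 and 44445. The share of all genes whose ranges part between these libraries was not counted, so this is not shown to be particular to Gfap. The summed level of the 9 olfactory bulb neuron markers tested in both tissues (Tbx21, listed too, was not) had medians of 45528 in stressed esomeprazole, 32054 in stressed vehicle, 39553 in non-stressed esomeprazole and 1501 in non-stressed vehicle frontal cortex. Hippocampal group medians of the same sum lay between 1601 and 1928. Non-stressed vehicle frontal cortex was thus near the hippocampal level, and the other frontal cortex groups were far above it. In those groups the tissue contrast compares hippocampus with cortical libraries mostly high in olfactory bulb markers. In the 7 frontal cortex libraries low in these markers Gfap lay between 2369.6 and 5829.66 normalised reads, overlapping the other 17 (4161 to 24291). None of these markers was at 0 in any library. Markers of several other cell types also differed between the tissues. For the 4 choroid plexus markers tested, the sum had group medians between 2483.5 and 38410.5 normalised reads in hippocampus, against 158 to 313 in frontal cortex. The summed level of 8 oligodendrocyte markers had group medians between 186209 and 214277 normalised reads in hippocampus, against 86870.5 to 104942 in frontal cortex, and all 8 were called higher in hippocampus. That of 4 radial glia and neural stem cell markers had group medians between 2998 and 3921 in hippocampus, against 1868 and 2078 in frontal cortex, and 3 of the 4 were called higher. The part of these cells in the Gfap contrast was not tested.

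A further fit left out the 12 libraries set apart by neighbouring-tissue markers. In hippocampus these were the libraries high in striatal markers, in frontal cortex those low in olfactory bulb markers. The frontal cortex libraries kept were thus those higher in bulb markers, so this fit did not remove that signal. In this fit the Gfap contrast averaged over the conditions was 1.08 (limma adjusted p = 0.00121). In non-stressed vehicle mice, where 4 of 6 frontal cortex libraries were left out, it was 1.57 and no longer called (adjusted p = 0.114). In stressed esomeprazole mice, where 4 of 6 hippocampal libraries were left out, it was 0.93 (adjusted p = 0.620). A hippocampal library kept there held the highest Gfap value of its group (29758) and had a no-feature share under 12%. The values of these 2 conditions thus rest on few libraries. A fit chosen after seeing the data held the no-feature share and both marker scores as covariates. In it the Gfap contrast was 1.20, 1.05, 1.33 and 1.18 in stressed esomeprazole, stressed vehicle, non-stressed esomeprazole and non-stressed vehicle mice. It was called in each of the 4 conditions (limma adjusted p between 5.71e-08 and 4.71e-06). The marker scores went largely with the group where most libraries stood apart, so the fit cannot fully part the scores from the condition there.

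**Figure D2:**
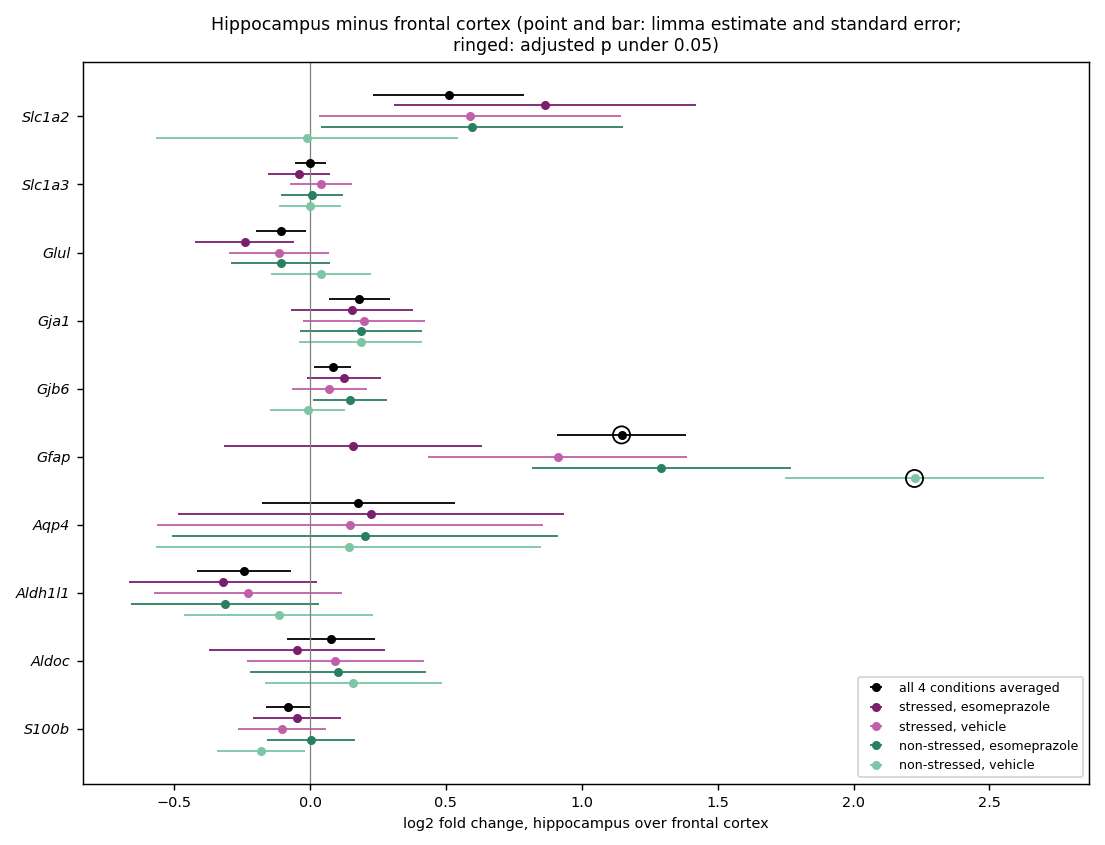
Log2 fold change of hippocampus over frontal cortex (horizontal axis) of the 10 genes, averaged over 4 conditions (black) and in each condition (colours), with limma standard errors as bars; rings mark an adjusted p under 0.05. Gfap runs between 0.16 and 2.22 over the conditions, and the other 9 genes carry no ring.

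The other 9 genes did not pass the test in the averaged tissue contrast. Among the genes of glutamate uptake, Slc1a2 had the largest difference. Its lowest, median and highest values were 25662, 104827 and 132674 normalised reads in hippocampus, against 10161, 77306 and 139235 in frontal cortex. The ranges overlapped almost entirely, and the log2 difference was 0.51 ± 0.28 (limma adjusted p = 0.201). Slc1a3, the other glial glutamate transporter, had 22590.1, 28058 and 34779.9 in hippocampus, against 20066, 28839 and 38364 in frontal cortex. Its log2 difference was 0.00 ± 0.06 (limma adjusted p = 0.991), the difference closest to 0 of the 10. Glul, the enzyme that follows uptake, had a log2 difference of -0.11 ± 0.09 (limma adjusted p = 0.488).

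Both gap junction connexins had small differences. Gja1 had 4059, 7999 and 8661 normalised reads in hippocampus, against 3119, 7114 and 8303 in frontal cortex (log2 difference 0.18 ± 0.11, limma adjusted p = 0.280). Gjb6 had 1592, 2159 and 2865 in hippocampus, against 1358, 2037 and 2724 in frontal cortex (0.08 ± 0.07, limma adjusted p = 0.463). For both genes the hippocampal and cortical libraries overlapped along nearly their whole range.

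Of the remaining genes, Aldh1l1 was at -0.24 ± 0.17, Aqp4 at 0.18 ± 0.36, S100b at -0.08 ± 0.08 and Aldoc at 0.08 ± 0.16 on the log2 scale (limma adjusted p between 0.368 and 0.812). Aqp4 had the largest standard error of the 10 and Slc1a3 the smallest. Reads of several of the 10 genes are uncertain, since annotated genes overlap them (GENCODE vM21) and the strand setting of the counting is not given in the sources used here, although the library kit keeps the strand. On the opposite strand, Dip2a overlaps S100b over 1731 bases and Teddm2 overlaps Glul over 285 bases. Of genes not analysed here, the noncoding Gm26668 overlaps Gfap over 13577 bases, Gm13872 overlaps Slc1a2 over 8854 and an antisense gene overlaps Aqp4 over 7896, all on the opposite strand, and Gm45901 overlaps Aldh1l1 over 33054 bases on the same strand. The Gfap contrast carries this uncertainty too.

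When the fit held that share as a covariate (the no-feature share), 5 further genes were called in the averaged contrast at sizes close to those above. They were Slc1a2 (0.44, limma adjusted p = 0.00348), Gja1 (0.15, adjusted p = 0.00200), Aldh1l1 (-0.20, adjusted p = 0.00109), Glul (-0.08, adjusted p = 0.0196) and Aldoc (0.12, adjusted p = 0.0405). That fit called 7422 of all genes against 3809 without the covariate. Without the 12 libraries of a no-feature share under 12%, only Gja1 of these 5 was called (0.12, adjusted p = 0.0124), beside 6588 of all genes.

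To set these genes in context, 5 further lists of related genes were counted in the averaged contrast, where 12.0% of all genes were called higher and 13.8% lower. Of 30 other genes of astrocytes, 5 were higher and 3 lower in hippocampus, with a median log2 difference of 0.10. Agt, which encodes angiotensinogen, was higher (1.41 ± 0.30, limma adjusted p = 0.000192), and so was Ppp1r3c, a glycogen-targeting subunit of protein phosphatase 1 (0.34 ± 0.06, adjusted p = 2.48e-05). Slc6a11, the glial GABA transporter GAT-3, was lower (-1.03 ± 0.23, adjusted p = 0.000394), and so was Kcnj10, the potassium channel Kir4.1 (-0.28 ± 0.07, adjusted p = 0.000690).

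Of the pan-reactive astrocyte genes, those that rise in astrocytes after different injuries, 9 of 12 were tested in both tissues, and 1 was called in each direction. Serpina3n, a serine protease inhibitor, was higher in hippocampus (1.30 ± 0.20, limma adjusted p = 8.29e-07) and Aspg, an asparaginase, was lower (-0.43 ± 0.12, adjusted p = 0.00483). Cd44 (0.25 ± 0.10, adjusted p = 0.0711) and Lcn2 (-0.76 ± 0.50, adjusted p = 0.322) were not called.

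Of 18 other genes of glutamate and glutamine handling, 1 was higher and 2 were lower in hippocampus, with a median of -0.05. The glutamine transporters Slc38a1 (-0.65 ± 0.12, limma adjusted p = 4.79e-05) and Slc38a3 (-0.85 ± 0.18, adjusted p = 0.000214) were lower, whereas the neuronal glutamate transporter Slc1a1 was higher (0.24 ± 0.06, adjusted p = 0.000849). Slc38a5 was not called (0.37 ± 0.19, adjusted p = 0.156).

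Of 9 other connexins and pannexins tested, 4 were higher and 3 lower in hippocampus. Gjd2, the connexin of neuronal electrical synapses, was lower (-1.26 ± 0.19, limma adjusted p = 6.83e-07), as were Panx1 (-0.68 ± 0.14, adjusted p = 0.000120) and Gjb2 (-0.46 ± 0.12, adjusted p = 0.00260). Gjb1, a connexin of oligodendrocytes, was higher (0.84 ± 0.23, adjusted p = 0.00383), and all 8 oligodendrocyte markers were higher too, with a median log2 difference of 1.04 in the same contrast. Of 6 genes of the dystrophin complex and the anchoring of Aqp4, Trpv4 (1.11 ± 0.23, adjusted p = 0.000226) and Dtna (0.43 ± 0.16, adjusted p = 0.0373) were higher and Kcnj10, which is on this list as well, was lower. Dag1 was not called (-0.12 ± 0.09, adjusted p = 0.390).

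The upstream sequences of the genes at the ends of the tissue contrast, Gfap with the largest difference and Slc1a3 with the smallest, are shown as the regions next to their transcription starts. The pair was picked with these values known. They are the 250 bases before the RefSeq start of each gene, written 5′ to 3′ on the gene's own strand (GRCm38.p6, both on the minus strand), Gfap at chr11:102897201-102897450 and Slc1a3 at chr15:8710808-8711057. In GENCODE vM21 this start of Gfap lies inside the gene, which reaches to base 102900912 of chromosome 11 in a longer annotated form, whereas the Slc1a3 window lies outside its gene. Capitals mark the motif matches.
Gfap: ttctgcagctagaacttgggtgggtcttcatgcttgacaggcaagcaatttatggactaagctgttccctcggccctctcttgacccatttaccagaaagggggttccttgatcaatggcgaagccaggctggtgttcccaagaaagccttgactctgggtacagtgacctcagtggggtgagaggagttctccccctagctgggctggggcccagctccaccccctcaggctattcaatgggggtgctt
Slc1a3: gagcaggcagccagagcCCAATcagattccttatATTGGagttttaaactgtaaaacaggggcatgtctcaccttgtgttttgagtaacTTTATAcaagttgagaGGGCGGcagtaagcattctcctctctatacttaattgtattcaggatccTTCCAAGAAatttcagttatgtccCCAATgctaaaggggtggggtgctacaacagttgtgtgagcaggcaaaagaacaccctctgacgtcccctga

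The motifs searched on both strands were the TATA box core TATAAA, the CCAAT box core, the GC box GGGCGG and the STAT site core TTCNNNGAA. The palindromes of NF1 and of the glucocorticoid receptor were searched as well. The matches overlapped nowhere in these windows. The Slc1a3 window held the TATA box core at 161 bases before the start, the CCAAT box core at 233, 216 and 72 bases, the GC box at 145 bases and the STAT site core at 96 bases, whereas the Gfap window held none of them. Of 32851 RefSeq windows of the same length, 12.4% held the TATA box core, 33.8% the CCAAT box core, 32.7% the GC box and 7.02% the STAT site core. Of the 9 genes with a window, the STAT site core was found in Aldoc and Slc1a3 only. The NF1 palindrome (0.0365% of windows) and the glucocorticoid receptor palindrome (0.00913%) were found in none.

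The stress effect was asked in each tissue, stressed against non-stressed mice averaged over esomeprazole and vehicle. None of the 10 genes was called in either tissue. Of all genes, 0.0133% (2 of 15038) were called in hippocampus, with 889 at an unadjusted p under 0.05, and none of 15016 in frontal cortex, with 571 at an unadjusted p under 0.05. DESeq2 called 127 genes in hippocampus and 10 in frontal cortex, and edgeR called 7 and 1. None of the 10 genes was called by any of these tools. The median log2 difference of the 10 genes was -0.08 in hippocampus, beside -0.01 over all genes, and -0.01 in frontal cortex, beside -0.02 over all genes.

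Gfap had the largest estimates, and they pointed in opposite directions in the 2 tissues. In hippocampus its lowest, median and highest values were 4279.7, 13946 and 41593 normalised reads in stressed mice, against 13773, 16619.5 and 44445 in non-stressed mice. The lowest stressed libraries lay under the whole non-stressed range, and the log2 difference was -0.59 ± 0.29 (n = 12 against 12, limma adjusted p = 0.863). In frontal cortex the values were 2879.86, 7766 and 24291 in stressed mice, against 2369.6, 6344 and 21524 in non-stressed mice. These ranges overlapped nearly completely, and the log2 difference was 0.63 ± 0.36 (limma adjusted p = 0.941).

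The difference between the stress effects of Gfap, hippocampus minus frontal cortex, was -1.22 ± 0.48 (limma adjusted p = 0.948). No gene was called for this difference, with 565 at an unadjusted p under 0.05. Without the 12 libraries that stood apart by neighbouring-tissue markers, of which 5 were hippocampi of stressed mice and 5 frontal cortices of non-stressed mice, the log2 stress difference of Gfap was -0.02 in hippocampus, 0.52 in frontal cortex and -0.52 between them. Without the 12 libraries of a no-feature share under 12% it was -0.55 in hippocampus, 0.18 in frontal cortex and -0.74 between them. With the no-feature share and both marker scores as covariates it was 0.04 in hippocampus, 0.16 in frontal cortex and -0.13 between them. None of these values was called.

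**Figure D3:**
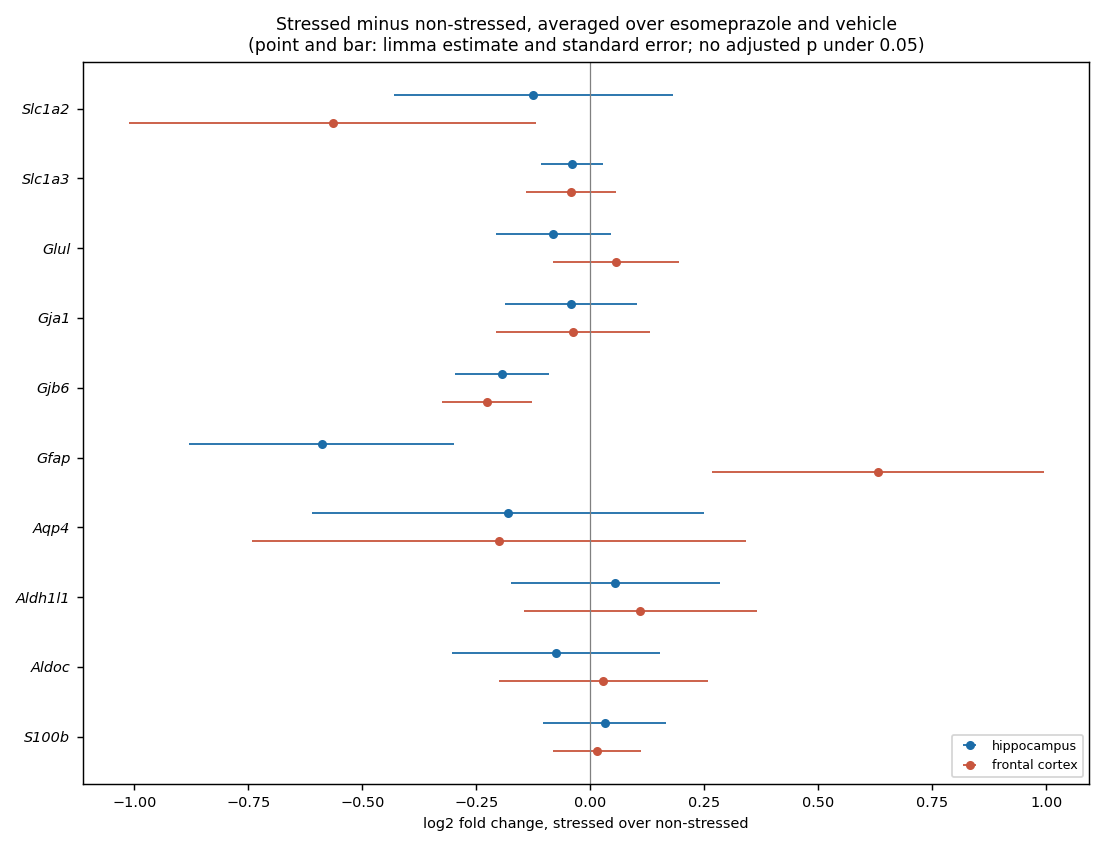
Log2 fold change of stressed over non-stressed mice (horizontal axis) of the 10 genes in hippocampus (blue) and frontal cortex (red), averaged over esomeprazole and vehicle, with limma standard errors as bars. Gfap lies at -0.59 in hippocampus and 0.63 in frontal cortex, Gjb6 at -0.19 and -0.23, and no adjusted p is under 0.05.

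Gjb6, like Gja1, Slc1a2, Slc1a3, Aqp4, Aldh1l1 and S100b, had the same direction in both tissues. In hippocampus it had 1592, 1963 and 2439.66 normalised reads in stressed mice, against 1593, 2268 and 2865 in non-stressed mice, a log2 difference of -0.19 ± 0.10 (limma adjusted p = 0.940). In frontal cortex it had 1358, 1823 and 2374 in stressed mice, against 1541, 2196 and 2724 in non-stressed mice (-0.23 ± 0.10, limma adjusted p = 0.941). The ranges overlapped in both tissues. The other connexin, Gja1, was at -0.04 ± 0.14 in hippocampus and -0.04 ± 0.17 in frontal cortex.

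Among the glutamate uptake genes, Slc1a2 was at -0.12 ± 0.31 in hippocampus and -0.57 ± 0.45 in frontal cortex on the log2 scale, where the value without the libraries of a no-feature share under 12% was -0.12. Slc1a3 was at -0.04 ± 0.07 in hippocampus and -0.04 ± 0.10 in frontal cortex, and Glul at -0.08 ± 0.13 and 0.06 ± 0.14. The largest of the remaining 4 genes was Aqp4, with -0.18 ± 0.43 in hippocampus and -0.20 ± 0.54 in frontal cortex. Aldh1l1, Aldoc and S100b lay between -0.08 and 0.11 in both tissues. No stress effect within vehicle or within esomeprazole mice, no esomeprazole effect and no interaction was called for any of the 10 genes. In each of these 8 comparisons limma called 0% of the 15038 genes of hippocampus or the 15016 of frontal cortex. At an unadjusted p under 0.05, between 57 and 970 genes stood in each. The largest of these estimates with an unadjusted p under 0.1 were those of Gfap under stress, 0.91 ± 0.51 in vehicle frontal cortex and -0.79 ± 0.41 in esomeprazole hippocampus (limma adjusted p = 0.788 and 0.958). Over the 11 alternatives the estimate ran between 0.08 and 1.14 in vehicle frontal cortex and between -0.84 and 0.22 in esomeprazole hippocampus, never called. It was 0.59 and 0.22 without the libraries set apart by neighbouring-tissue markers, which were 4 of the 6 non-stressed vehicle frontal cortices and 4 of the 6 stressed esomeprazole hippocampi.

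None of the genes in the 5 related lists was called under stress in either tissue. The 30 other astrocyte genes had a median log2 stress difference of -0.03 in hippocampus and 0.13 in frontal cortex, and the pan-reactive genes had -0.20 over 9 tested in hippocampus and 0.36 over 11 tested in frontal cortex. The 18 other glutamate and glutamine genes were at 0.00 and -0.02, the 9 other connexins and pannexins at 0.14 and 0.30, and the 6 genes of the dystrophin complex at -0.04 and 0.09.

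Library to library, the 10 genes did not vary alike. The standard deviation within groups on the log2 scale was 1.11 in hippocampus and 1.39 in frontal cortex for Aqp4, 0.78 and 1.15 for Slc1a2 and 0.74 and 0.93 for Gfap, against medians of 0.511 and 0.538 over all genes. Slc1a3 had 0.126 and 0.224, and 1.54% and 9.06% of all genes had no larger a spread. In hippocampus Aqp4 and Slc1a2 varied most of the 10 genes and Slc1a3 least, so that the 2 glutamate transporters were far apart by spread.

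This spread ran along the no-feature share. In the hippocampus, Aqp4 had 314, 987 and 2060.05 normalised reads (lowest, median and highest) in the 5 libraries with a no-feature share under 12%, against 1973, 4832 and 6320.2 in the other 19. Slc1a2 had 25662, 30130.1 and 62439 in those 5, against 50322, 110136 and 132674 in the others. Gfap went the other way, with 29758, 39835 and 44445 in the 5 libraries, against 4279.7, 14389.8 and 20274 in the others. The Gfap ranges did not overlap, while those of Aqp4 and Slc1a2 did so at their edge.

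The difference of the log2 medians, libraries under 12% minus the others, had the same sign in both tissues for each of the 10 genes. It was lowest for Aqp4 (-2.27 in hippocampus, -2.89 in frontal cortex), followed by Slc1a2 (-1.85 and -2.19) and Gja1 (-0.85 and -0.83). Gjb6 (-0.24 and -0.32) and Slc1a3 (-0.16 and -0.36) were the closest to 0 among the lower ones. S100b (0.35 and 0.30), Glul (0.61 and 0.61), Aldh1l1 (1.12 and 1.23), Aldoc (1.41 and 0.92) and Gfap, at 2.81-fold and 2.83-fold the median of the others, were higher in the libraries under 12%. The ranges did not overlap for 4 of the 10 genes in hippocampus (Gja1, Glul, Gfap, Aldoc) and for 6 in frontal cortex (Slc1a3, Glul, Gja1, Aqp4, Aldh1l1, Aldoc). Of all genes, 42.2% in hippocampus and 37.8% in frontal cortex did not overlap.

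**Figure D4:**
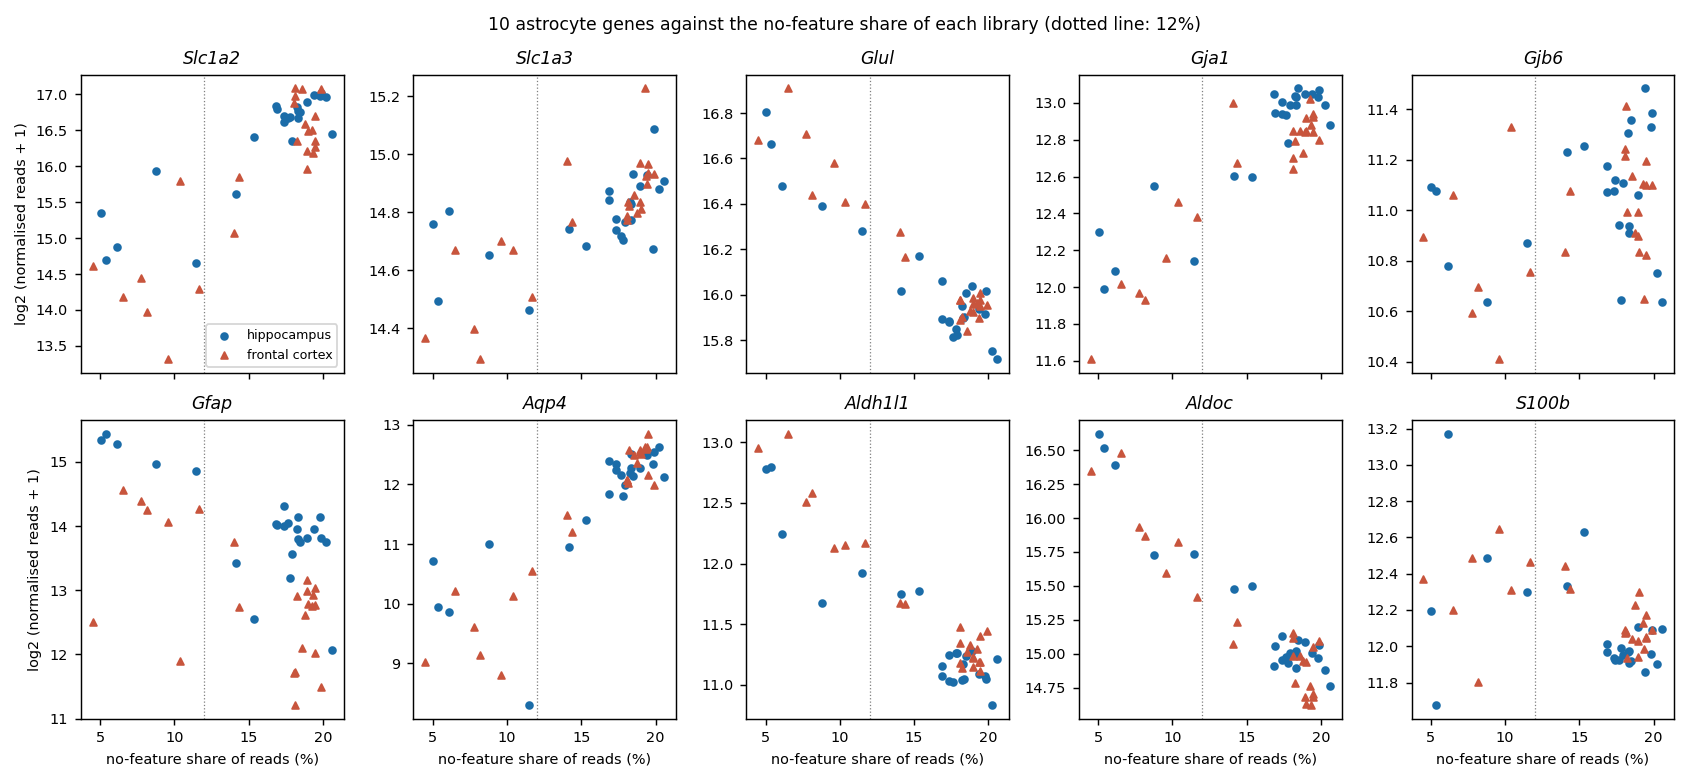
Log2 of normalised reads plus 1 (vertical axis) of the 10 genes against the no-feature share in percent (horizontal axis), with 1 point per library, hippocampus in blue circles and frontal cortex in red triangles, and a dotted line at 12%. Slc1a2, Gja1 and Aqp4 are low to the left of the line, and Glul, Aldh1l1 and Aldoc are high there in both tissues.

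The same differences lined up with the base composition of the transcripts. Aqp4 (41.4% GC in its longest transcript) and Gja1 (42.2%) are among the poorest of the 10 in G and C, and Gfap (55.5%) and Aldh1l1 (54.4%) are the richest. As a description across genes, which are not independent replicates, the Spearman coefficient of the difference with GC was 0.903 in hippocampus and 0.952 in frontal cortex over the 10 genes, and 0.753 and 0.806 over 14449 and 14440 genes. With transcript length it was -0.539 and -0.576 over the 10 genes, and -0.383 and -0.348 over all genes. In the tenth of genes lowest in GC hippocampus had a median log2 difference of -2.04 and frontal cortex of -2.64, and in the tenth highest in GC these were 1.11 and 1.04. The part of base composition, of the no-feature share or of RNA quality in the values of the 10 genes was not tested.

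**Figure D5:**
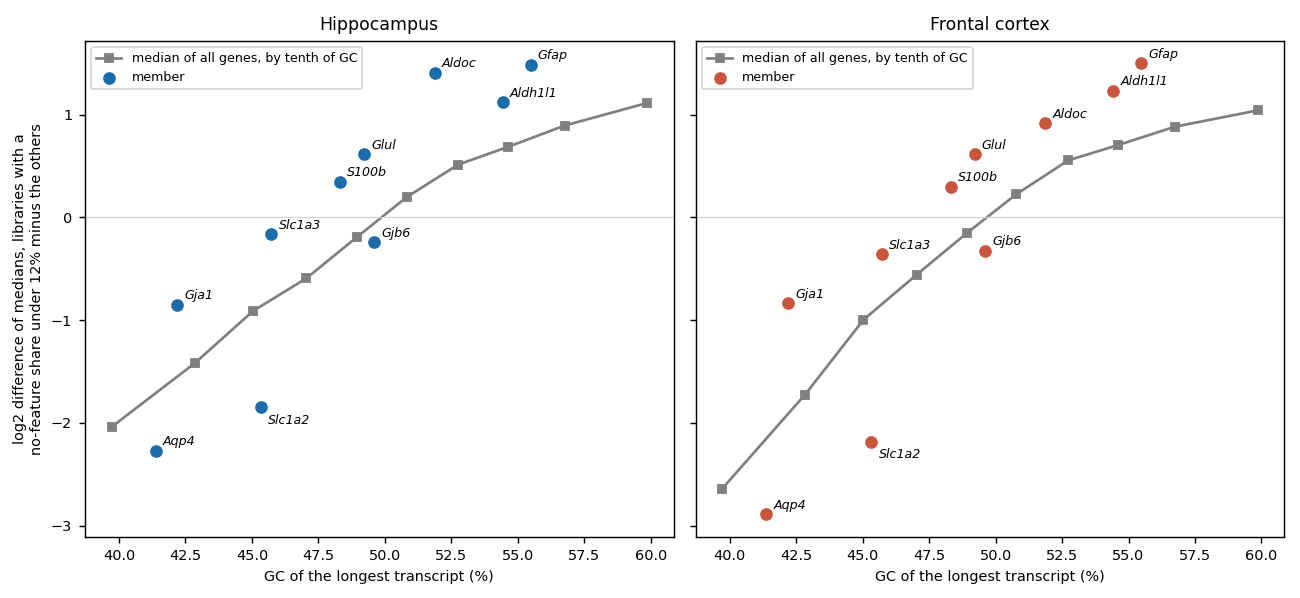
Difference of log2 medians between libraries with a no-feature share under 12% and the others (vertical axis) against the GC percentage of the longest transcript (horizontal axis), for the 10 genes (coloured points) and the median of all genes in 10 classes of GC (grey squares), in hippocampus (left) and frontal cortex (right). The 10 genes climb with GC along the grey line, with Slc1a2 furthest under it.

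Among the libraries with a no-feature share of at least 12% (19 hippocampal, 17 frontal cortex), 20 relations of a gene with that share were computed, with p from 100000 random permutations, adjusted over the 20. Aqp4 had the largest Pearson r, 0.787 in hippocampus (adjusted p = 0.0026) and 0.818 in frontal cortex (adjusted p = 0.0054), with Spearman rho of 0.537 and 0.544 (adjusted p = 0.126 for both). Without the 2 libraries farthest from the median share, r was 0.463 in hippocampus and 0.317 in frontal cortex, so these relations rest largely on those libraries. Of the 20 Pearson coefficients 13 passed the adjustment, 7 in hippocampus and 6 in frontal cortex, and without those 2 libraries the size of r in these 13 lay between 0.0152 and 0.463, with the sign turned in 4. Aldh1l1 was at -0.703 in hippocampus and -0.734 in frontal cortex (adjusted p = 0.00628 and 0.00914), and at -0.208 and -0.0152 without them. No Spearman coefficient of the 20 passed the adjustment.

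The 5 genes outside the 10 whose values most resembled the mean of the 10, after each group's mean had been taken off, were Pcdha5, Met, Scp2, Pbdc1 and Pdia3. The measure of likeness, the smaller Pearson r of the 2 tissues over 24 libraries each, was 0.69, 0.68, 0.63, 0.63 and 0.62 for them. The 10 genes themselves had between 0.37 (Gjb6) and -0.58 (Aldh1l1) by the same measure, so that they did not move as 1 group from library to library.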

How the data were processed

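The authors deposited a scaled signal for each gene. Its values are whole reads over a constant of the library, which the numbers show by themselves: 100% came within 0.02 of a whole read. The submitters' processing notes name STAR, HTSeq and DESeq2 and the build mm10 but no versions, and the rule by which genes were kept is not given in the sources used here. The 4 entries of each file that name no gene and 24 names turned into dates were left out.

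Whole reads were recovered and scaled by TMM (edgeR 4.0.16), within a tissue for the stress and drug comparisons and over all 48 libraries for the tissue contrast and for the values printed. The test was limma 3.58.1 (trend, two-sided) after adding 1 to the normalised reads and taking log2, with a mean for each group. It covered the 15038 genes of hippocampus, 15016 of frontal cortex and 14820 of both that filterByExpr kept at a minimum count of 10, and p was adjusted over all of them by Benjamini-Hochberg. Fold changes are on that scale and errors are standard errors unless named otherwise. The design text gives 6 mice per condition, but no label ties a library to a mouse, so p-values measure the spread between these libraries. The limma step was also run on simulated data, but the outcome is not given here and nothing is concluded from it.

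Alternatives were median-of-ratios scaling, the deposited scaling, no filter, a pseudocount of 5, edgeR's quasi-likelihood test, DESeq2 1.42.0, a block for the replicate number and a covariate for the no-feature share. Further fits left out the libraries whose no-feature share was below 12%, or those set apart by markers of neighbouring tissue. The latter were high in striatal markers in hippocampus and low in olfactory bulb markers in frontal cortex. The fit with that share and both marker scores as covariates was chosen after seeing the data. The 10 genes, the 5 related lists and the marker lists were chosen with earlier results of these data known. Named from each list were the 4 genes of smallest p in the averaged tissue contrast. Positions, lengths and GC are from GENCODE vM21 (GRCm38), upstream sequences from RefSeq (GRCm38.p6, windows for 9 of the 10 genes). R 4.3.3, Python 3.11.15, numpy 2.4.6, scipy 1.17.1, pandas 2.3.3 and matplotlib 3.10.9 were used. Depth is given as gene reads per library, and its precision covers counting error only.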

Additional observations from a re-analysis of the deposited data

Results flagged for a closer look

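There were 80 checks on the log2 scale (10 genes in 8 groups of 6 libraries). In 19 a single library's gap to its nearest neighbour exceeded Dixon's 95% critical value of 0.625 of the group's range. Chance flags about 1 in 20 groups, which is 4.0 of 80, but the genes share libraries, so the checks are not independent. All 19 lay in libraries with a no-feature share under 12%, and 4 of them in a library also set apart by neighbouring-tissue markers.

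In hippocampus of non-stressed esomeprazole mice, library 4 (no-feature share 6.12%) stood apart for 8 genes. It was the highest of its group for Gfap (39835 normalised reads, the others 13773 to 17963), Aldh1l1 (4855, the others 2123 to 2417), S100b (9230, the others 3875 to 4351), Glul (91411, the others 60897 to 68447) and Aldoc (85882, the others 30818 to 35106). It was the lowest for Aqp4 (930, the others 3657 to 5958), Slc1a2 (30130, the others 110136 to 132674) and Gja1 (4349, the others 7881 to 8661).

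In hippocampus of stressed vehicle mice, library 3 was the highest for Gfap (41593), Glul (114440) and Aldoc (100915). In hippocampus of stressed esomeprazole mice, library 5 was the lowest for Aqp4 (314) and Slc1a2 (25662). In hippocampus of non-stressed vehicle mice, library 3 was the highest for Aldh1l1 (7118) and library 1 for S100b (5735). In frontal cortex of non-stressed vehicle mice, library 4 was the highest for Aldh1l1 (7915) and Aldoc (83466) and the lowest for Slc1a3 (21126) and Gja1 (3119).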

How the results depend on the processing

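Over 11 alternatives and 16 comparisons the 10 genes gave 1760 values, of which 1738 kept their side of the threshold, and of the uncalled ones 194 changed sign, the largest of these being 0.64. The Gfap tissue contrast within non-stressed vehicle mice lost its call without the libraries set apart by markers (1.57), and 20 values gained one in the same direction, all with covariates or without the libraries under 12% no-feature reads. A further value gained a call with its sign turned, the Slc1a2 tissue contrast within non-stressed vehicle mice, which was 0.58 (limma adjusted p = 0.0433) with the share and both marker scores as covariates, against -0.01 without covariates. The causes were not tested.

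Counts over all genes moved more. The stress effect in hippocampus (2 genes) had 127 with DESeq2, 7 with edgeR, 14 with the no-feature share in the fit, 10 without libraries under 12%, and 0 both without the libraries set apart by markers and with both kinds of covariates. That in frontal cortex (0 genes) had 10 with DESeq2, 1 with edgeR, 24 with the share and 12 with both kinds of covariates. Within arms of 0 genes, DESeq2 called 68 in esomeprazole hippocampus (1 without libraries under 12%) and 1 in each of vehicle hippocampus, vehicle frontal cortex (4 with the share) and esomeprazole frontal cortex, and 15 for the stress difference between tissues.

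The tissue contrast (3809 genes) had 7422 with the share, 8037 with both kinds of covariates and 6588 without libraries under 12%. In the same order of fits it had 2533, 3214 and 1418 (778) in stressed esomeprazole, 3509, 3971 and 2432 (1118) in stressed vehicle, 3792, 3750 and 3720 (1450) in non-stressed esomeprazole, and 3494, 3436 and 2955 (1359) in non-stressed vehicle mice, the main count in brackets. It had 825 in non-stressed vehicle mice without the libraries set apart by markers.

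Replicate numbers are shared by the groups, but no label says that they pair mice. Of 24 hippocampal libraries, 8 correlated best with the frontal cortex library of their own number, where chance gives 1 in 6. The median r of same-numbered pairs was 0.438 within frontal cortex (0.0881 for other numbers), 0.299 within hippocampus (0.321) and 0.428 across tissues (0.344). Same-numbered pairs over 0.1 were 23 of 36, 22 of 36 and 15 of 24, beside 90 of 180, 104 of 180 and 64 of 120 for other numbers. Pairs within a tissue come from different mice, so they cannot show whether 1 mouse gave both tissues. These values do not decide the pairing, and the numbers were not taken to pair the samples. With the replicate block, the hippocampal stress count was 1 and the tissue contrast 3765, and no call of the 10 genes changed.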
